A study of Mus musculus with 6 samples.

Results

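The Plec locus carried a run of 9 recurrent regions of N6-methyladenosine (m6A) enrichment in mouse brain RNA, and the data at that locus are described here. The locus was taken as a window of mm9 chromosome 15, from 76001000 to 76063000, and its members were all deposited m6A peaks with a summit inside it. These were 21 of 32858 peaks in m6A IP 1, 23 of 32671 in m6A IP 2 and 24 of 24686 in m6A IP 3. Peaks of different lists with at least 1 base in common were merged, which gave 21 regions in the window, of 43377 in all. Within the window, a run of 9 neighbouring regions from 76005927 to 76012314 was set against the other 12 regions. The run had been picked because its regions recurred in all 3 lists and lay close together. Recurrence, position, spacing, filled length, pileup and fold at this locus are therefore a description, and no test was run on them.

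The study mapped m6A in whole brain of Mus musculus by m6A-seq, in which RNA fragments bound by an m6A antibody (IP) are sequenced beside unbound input RNA. There were 3 IP libraries, made with an m6A antibody, and 3 input libraries, made without antibody, all from polyadenylated RNA of brain tissue. The labels give no genotype, strain, age or treatment for either group, and all samples are of 1 tissue. Nor is it said whether the replicates are different animals, and the SDs below may therefore be technical. The series asks about mRNA methylation and oligodendrocytes, the cells that make central myelin. The peak lists hold no expression values, so the labelled tissue was not checked against cell type markers.

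Plec encodes plectin, a giant linker protein of the plakin family that ties intermediate filaments to actin, microtubules and junctions. The protein has an actin-binding domain near its start, a long coiled-coil rod, and a tail of plakin repeats that binds intermediate filaments. The rod and the tail are each encoded by an unusually large exon at the 3′ end of the gene, and alternative first exons give many isoforms. In messenger RNA, m6A is written by the METTL3 and METTL14 complex at adenosines in short motifs built around GGAC and related letters. It is found above all near stop codons and in long internal exons.

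The available annotation was on GRCm38, not on the mm9 build of the peak lists, so exons were not laid over peaks and no base under a peak could be read. In that annotation Plec (ENSMUSG00000022565.15) lies on the minus strand of chromosome 15 and has 21 protein-coding transcripts. Its longest exon measures 7412 bases and is the last of 33 in its transcript, with 6216 coding bases (stop codon included) and 1196 bases of 3′ UTR. The exon before it, number 32, measures 3381 bases, against a median exon of 126 bases in that transcript. Of 13554 protein-coding genes with an exon of at least 1000 bases, 97.6% had a shorter longest exon.

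Motifs were searched on the sense strand of that last exon, since the mark is set on RNA. GGAC occurred 44 times, 5.94 per kb, and 91.3% of the 13554 genes had fewer per kb in their longest exon (median 3.003, quartiles 1.97 and 4.34). The extended motif GGACT, a subset of these matches, occurred 6 times, 0.809 per kb, against a median of 0.864 and quartiles of 0.472 and 1.40. On the opposite strand there were 20 GGAC and 3 GGACT. GGAC was present in 98.8% and GGACT in 85.1% of the 13554 exons, which differ in length, so a match by itself sets Plec apart from few genes. Neither the coding share of the exons nor their base composition was matched in these comparisons. Neighbouring GGAC matches in the Plec exon were a median of 134 bases apart, and neighbouring GGACT matches 1855 bases apart. The 6 GGACT matches are printed, with GGACT in capitals and 10 bases on either side from the GENCODE transcript sequence, to show the letters around this form of the motif. They start at bases 514, 670, 2615, 2661, 4516 and 7089 of the exon, the first 5 in coding sequence and the last in the 3′ UTR.
Plec GGACT match 1: cacctttgagGGACTacgtcagaag
Plec GGACT match 2: cagcattgcaGGACTgttactgaag
Plec GGACT match 3: ggctccgtgcGGACTctgctgcagg
Plec GGACT match 4: tctatctggaGGACTcgaaggagaa
Plec GGACT match 5: ccccatcaagGGACTcaagctgacg
Plec GGACT match 6: agaggcccagGGACTcttcaagcct
A match is a run of letters, not a methylated site, and none of the 6 was placed against a peak.

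Peak height is given as pileup, the IP tags stacked at the deepest base of a peak. With 1 tag kept per position and tags of 50 bases, at most 50 tags can lie over a base on 1 strand. This cap limits heights, and with them folds, most where coverage is high. After the authors' removal of duplicates the IP libraries held 5676427, 6493926 and 6327958 tags, and the inputs 7436658, 11589632 and 7185922. That step took out 66.1%, 64.9% and 63.5% of the tags of m6A IP 1, 2 and 3. A pileup of 27, typical of the run, has a 95% exact Poisson interval of 17.8 to 39.3. It is a rough guide to counting error only, since it ignores the cap and the choice of the deepest base. The fold enrichment, a value of the authors' peak caller, divides pileup by local input background at the summit, with 1 added to both.

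Enrichment at Plec was concentrated at the low-coordinate end of the window. Of the 68 peaks of the 3 lists, 61 lay in the 10850 bases from 76001465 to 76012314, which make up 17.5% of the window. In m6A IP 1, 2 and 3 these were 19 of 21, 20 of 23 and 22 of 24 peaks. On GRCm38, where Plec is on the minus strand, lower coordinates point toward the 3′ end of the gene. The 2 longest exons of Plec on that build add up to 10793 of the 15018 bases of the transcript described above. The stretch of 10850 bases is a genomic span on mm9, so it and the exon lengths are unlike measures. Likewise, 17.5% is a share of genomic bases, introns included, whereas the libraries were of polyadenylated RNA. How far the crowding of peaks follows the position of exon sequence was not tested. No peak was assigned to an exon. The share of 17.5% depends on where the window edges were set, and peaks near the upper edge were not assigned to a gene. The nearest peaks outside the window lay 44386, 65701 and 46223 bases below it and 8053, 8050 and 7974 bases above it. Those below had pileups of 4, 4 and 5 tags, and those above 9, 11 and 9 tags.

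**Figure D1:**
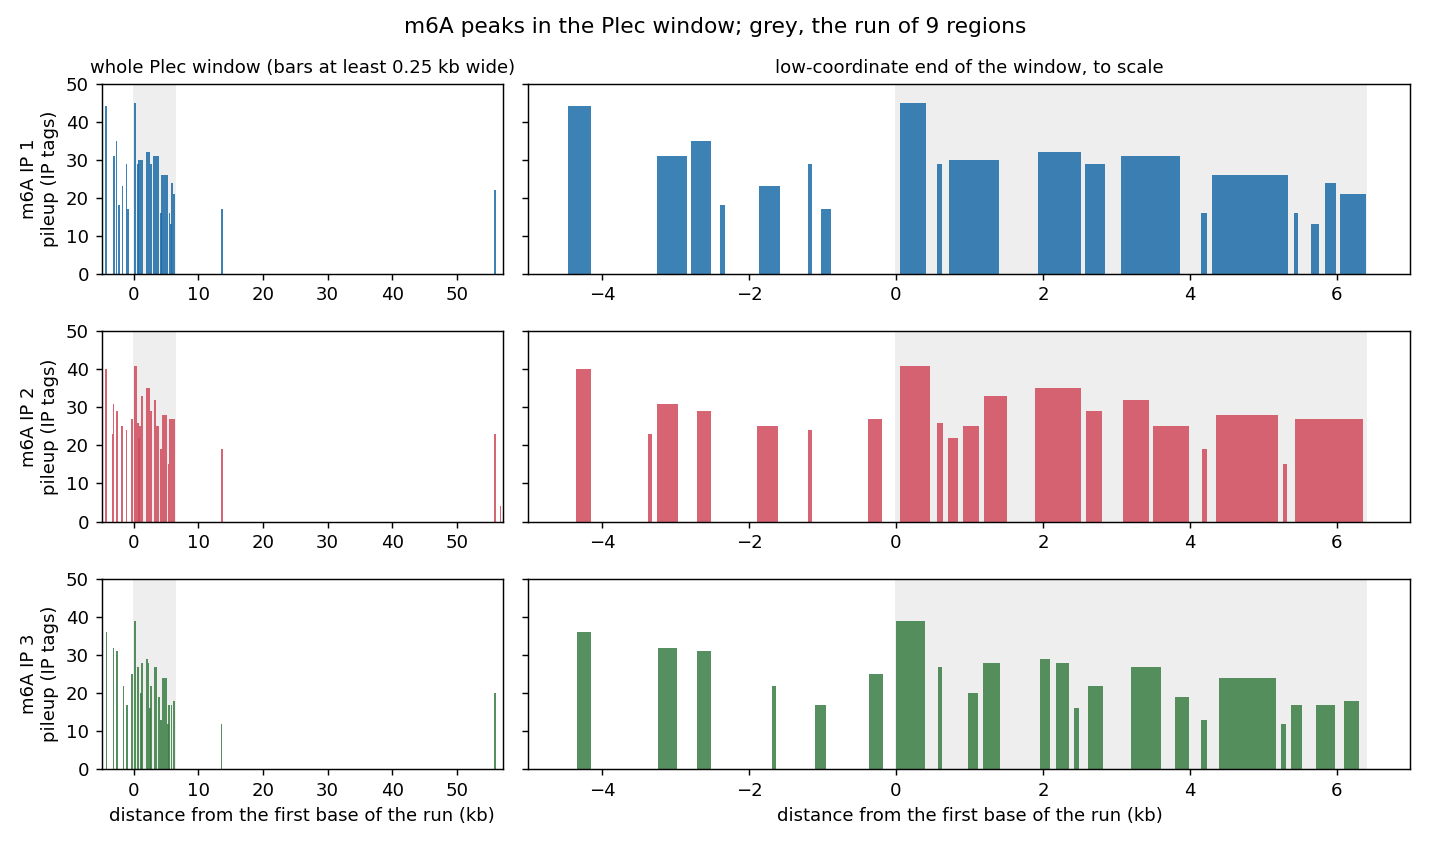
Peaks of m6A IP 1, 2 and 3 (rows) in the Plec window, drawn as bars from peak start to end with the pileup in IP tags as height, against distance from the first base of the run in kb. The left column shows the whole window and the right column its low-coordinate end, with the run in grey. In each list the bars crowd into the first 10850 bases and only 2 or 3 stand beyond the run.

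Of the 21 regions, 15 were found in all 3 lists, 3 in 2 lists and 3 in 1. Found in all 3 lists were 71.4% of the regions of the window, against 38.6% of the 43377 regions of the series. The run was chosen on this measure, so nothing is read from the comparison. All 9 regions of the run were recurrent, and of the other 12 regions 6 were. The recurrent regions formed 2 runs and 2 lone regions when gaps of at most 1000 bases were bridged. The first run held 4 regions from 76001465 to 76004349 (2885 bases), and the second was the run of 9, over 6388 bases. Between them lay 1577 bases without a recurrent region, a stretch that held the 3 regions found in 2 lists. Counting regions found in at least 2 lists joined both runs into 1 of 16 regions. Above the run of 9, the next peak of any list lay 7092 bases away.

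The first region of the run, 464 bases from 76005927 to 76006390, was the tallest of the 9 in every list. Its pileups were 45, 41 and 39 tags in m6A IP 1, 2 and 3, and its folds 5.85, 8.06 and 7.98. The summits of the 3 lists fell within 11 bases of each other. Beside it, the second region was the shortest of the run, 80 bases from 76006483 to 76006562. It had pileups of 29, 26 and 27 tags and folds of 6.23, 4.92 and 3.48, so the lists differed by 1.79 times in fold while their heights stayed within 3 tags. Its input background was 5, 8 and 8 tags before scaling.

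The third region ran for 807 bases from 76006632 to 76007438. It had pileups of 30, 33 and 28 tags, folds of 6.93, 6.20 and 4.05, and summits of the highest peaks within 3 bases. The fourth region, 626 bases from 76007821 to 76008446, had pileups of 32, 35 and 29 tags and highest folds of 4.64, 6.57 and 5.90, the last from a peak of 28 tags. Its highest summits were 200 bases apart, because the tallest of its 3 peaks in m6A IP 3 was not the one nearest to the summits of the other lists. The fifth region, 265 bases from 76008500 to 76008764, had pileups of 29, 29 and 22 tags and folds of 6.23, 4.96 and 5.09. These 3 regions were close in height, and their values overlapped from list to list.

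The highest mean fold of the run belonged to the sixth region, 932 bases from 76008985 to 76009916. Its folds were 8.90, 8.28 and 7.78 over pileups of 31, 32 and 27 tags, a mean fold of 8.32 ± 0.560 (SD, n = 3). The seventh region, 88 bases from 76010073 to 76010160, had the lowest pileups of the run in every list, 16, 19 and 13 tags, and folds of 4.19, 5.26 and 4.21. The eighth was the longest, 1031 bases from 76010223 to 76011253. Its pileups were 26, 28 and 24 tags, and the peaks with these heights had folds of 8.21, 4.80 and 3.49 over backgrounds of 3, 9 and 7 input tags. In m6A IP 2 and 3 the highest folds of the region, 4.92 and 4.41, belonged to smaller peaks of 15 and 12 tags, and by highest fold it had the widest spread between lists in the run. The ninth region, 1020 bases from 76011295 to 76012314, had pileups of 24, 27 and 18 tags and folds of 8.60, 8.64 and 6.88, at the lowest mean background of the run, 1.97 ± 0.246 scaled tags (SD, n = 3).

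By mean pileup, the first region stood apart at 41.7 ± 3.06 tags (SD, n = 3) and the seventh at 16 ± 3 tags. In between, the order was the fourth at 32 ± 3, the third at 30.3 ± 2.52, the sixth at 30 ± 2.65, the second at 27.3 ± 1.53, the fifth at 26.7 ± 4.04, the eighth at 26 ± 2 and the ninth at 23 ± 4.58. Each of these 7 differed from the next in the order by no more than the larger of their SDs, except that the gap from the sixth to the second just exceeded it. The first exceeded the fourth by more than either SD, and the ninth exceeded the seventh likewise.

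**Figure D2:**
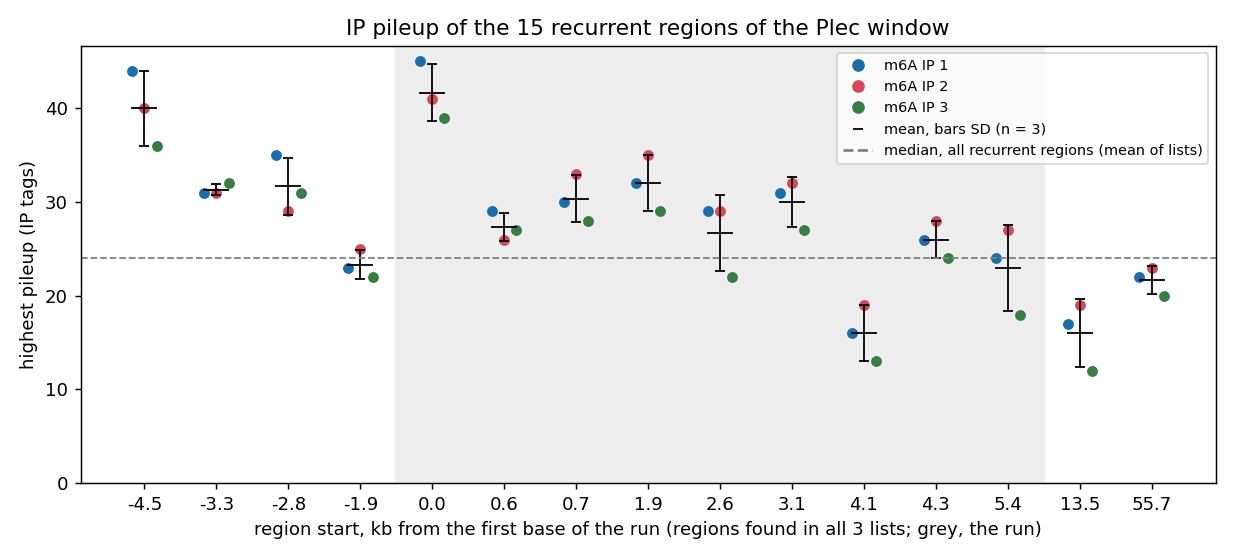
Highest pileup in IP tags (vertical axis) of the 15 recurrent regions of the Plec window, ordered by position, with 1 point per list, the mean and SD (n = 3), and the run in grey. The dashed line is the median of all recurrent regions, 24 tags as the mean over the lists. The first region of the run is its highest and the seventh its lowest in each list.

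The regions of the run were packed closely. They covered 5313 of its 6388 bases, 83.2%, and the 8 gaps between them measured 41 to 382 bases, with a median of 80.5. Highest summits of neighbouring regions were 341 to 1132 bases apart, with a median of 753. The medians of the single lists were 733, 754 and 734 bases. Their likeness is largely built in, since each list gave 1 summit to each of the same recurrent regions. Between all neighbouring summits of the run the medians were 459, 421 and 341 bases in m6A IP 1, 2 and 3. When peaks had to share 50% of each other's length in place of 1 base, 6 regions recurred in the run, and they covered 42.8% of it.

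How the run was divided into peaks differed between the lists. m6A IP 1, 2 and 3 had 12, 13 and 16 peaks in it, covering 71.0%, 74.2% and 56.2% of its bases. Under peaks in all 3 lists lay 3077 bases (48.2%), in 2 lists 1401 bases (21.9%), in 1 list 835 bases (13.1%) and in no list 1075 bases (16.8%). Of the 9 regions, 4 held a single peak in every list, and 5 held several in at least 1 list. The ninth region was 1 peak of 926 bases in m6A IP 2, where m6A IP 1 had 4 peaks and m6A IP 3 had 3. Whether such pieces are separate sites or parts of a continuous enriched stretch was not tested.

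Summits nevertheless recurred at some positions to within a few bases. Chaining summits no more than 10 bases apart sorted the 41 peaks of the run into 24 positions, of which 5 held a summit of every list, 7 of 2 lists and 12 of 1 list. The 5 shared positions lay in the first, the second, the third, the fourth and the eighth region, and spread over 11, 6, 3, 16 and 4 bases. Taking only the highest peak of a region in each list, the summits of the 3 lists fell within 10 bases in 3 of the 9 run regions, 33.3%, and in 31.5% of the 16757 recurrent regions. The median spread was 21 bases in the run and 22 bases in the series. Over all peaks the run was lower: 58.3%, 53.8% and 43.8% of run peaks in m6A IP 1, 2 and 3 had a summit of both other lists within 50 bases, against 70.4%, 70.5% and 67.7% of the peaks of all recurrent regions. Within 10 bases the shares were 41.7%, 23.1% and 18.8% in the run and 32.4%, 32.5% and 31.3% in the series.

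Below the run, the 4 recurrent regions of the first group had heights like those inside it. The lowest-coordinate region, 316 bases from 76001465 to 76001780, had pileups of 44, 40 and 36 tags and folds of 6.33, 6.66 and 3.77, with summits within 3 bases. Next, 411 bases from 76002672 to 76003082 had pileups of 31, 31 and 32 tags. Its folds of 2.74, 4.85 and 6.21 differed by 2.27 times, over scaled backgrounds of 10.7, 5.60 and 4.31 tags, although the heights were within 1 tag. The third of them, from 76003136 to 76003414, had pileups of 35, 29 and 31 tags and folds of 4.57, 3.88 and 3.98, and the fourth, from 76004033 to 76004349, had pileups of 23, 25 and 22 tags and folds of 3.78, 3.94 and 3.61. The fourth had the lowest mean fold of the 15 recurrent regions, 3.78 ± 0.164 (SD, n = 3).

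Above the run, 2 lone regions recurred. The one from 76019407 to 76019520 had pileups of 17, 19 and 12 tags and folds of 7.12, 4.59 and 4.71. The other, from 76061658 to 76061775, had pileups of 22, 23 and 20 tags, with summits within 10 bases, and folds of 9.10, 5.50 and 3.34. Its backgrounds were 2, 6 and 6 input tags. It lies close to the upper edge of the window, and since the neighbour of Plec on that side in the GRCm38 gene order is Parp10, its gene was not determined. The remaining 6 regions of the window, found in 1 or 2 lists, held 9 peaks with pileups of 4 to 29 tags and folds of 2.43 to 5.90. The weakest, 4 tags in m6A IP 2, lay at the upper edge from 76062550 to 76062645.

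The run and the other recurrent regions of the window did not separate by height. Run regions had pileups of 16 to 45, 19 to 41 and 13 to 39 tags in m6A IP 1, 2 and 3, and the other 6 recurrent regions 17 to 44, 19 to 40 and 12 to 36 tags. Median pileups were 29, 29 and 27 tags in the run and 27, 27 and 26.5 tags in the rest, a ratio of 1.06 ± 0.0319 (SD, n = 3). That ratio turned to 0.914 where 50% of each peak had to be shared, to 0.981 with the mean over a region's peaks, and to 0.999 without m6A IP 1. Over the 16757 recurrent regions of the series the medians were 25, 25 and 22 tags.

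Fold was higher in the run, and the groups overlapped. The median fold was 6.23, 6.20 and 5.09 in the run, 5.45, 4.72 and 3.88 in the rest of the window, and 5.20, 4.97 and 4.63 over all recurrent regions. Run over rest gave 1.26 ± 0.0991 (SD, n = 3), above 1 in each list. Single folds ranged from 3.48 to 8.90 in the run and from 2.74 to 9.10 in the rest. A region's fold was the highest among its peaks, and only regions of the run held several peaks in a list. With the mean over a region's peaks the ratio was 1.17. Where 50% of each peak had to be shared, the ratio was 1.07.

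The recovered background differed between positions, and it is also the denominator of the fold. It is the peak caller's local value, not input coverage at a base. It came to whole input tags at some peaks and not at others. The size of the window behind it may therefore differ between regions and between lists. Median backgrounds were 3.47, 4.48 and 4.02 scaled tags in the run and 5.72, 5.38 and 5.33 in the rest, a ratio of 0.731 ± 0.115 (SD, n = 3). The 4 recurrent regions below the run had mean backgrounds of 6.69 ± 1.89, 6.87 ± 3.37, 6.88 ± 0.161 and 5.44 ± 0.143 tags (SD, n = 3). In the first 5 regions of the run the means were 5.03 ± 1.59, 5.11 ± 1.70, 4.71 ± 1.36, 5.29 ± 0.812 and 4.13 ± 0.806 tags. In the last 4 they were 2.73 ± 0.225, 2.73 ± 0.368, 4.50 ± 1.99 and 1.97 ± 0.246. Mean recovered background was thus lower at higher coordinates within these 10850 bases, though not at every step. In the eighth region the lists disagreed. Whether input coverage itself changed along the locus was not tested, since these values may rest on windows of different sizes. Many steps between neighbours were smaller than the SDs. The series median was 3.82, 3.92 and 3.65 tags. The part of lower background in the fold of the sixth and ninth regions was not tested.

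**Figure D3:**
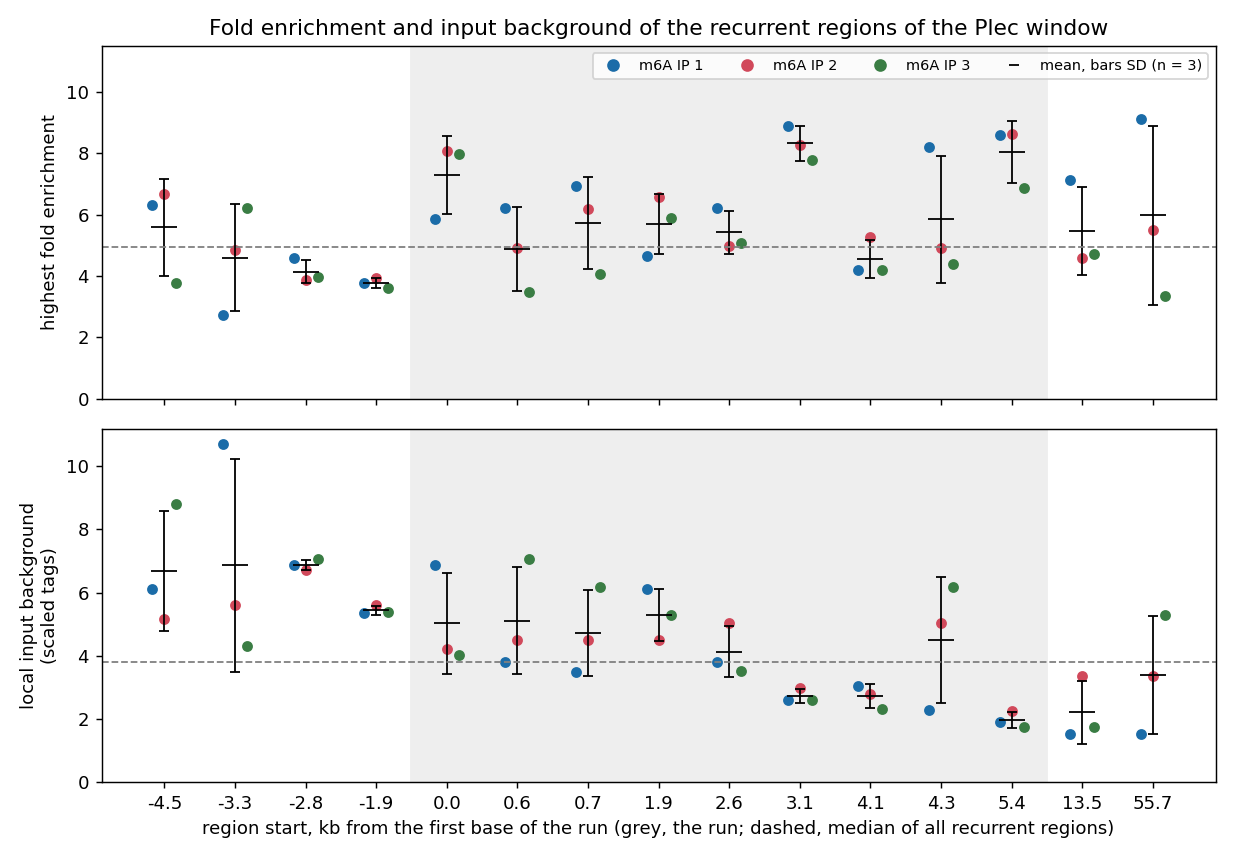
Highest fold enrichment (top) and local input background in scaled tags at the highest peak (bottom) of the 15 recurrent regions of the Plec window by position, with 1 point per list, mean and SD (n = 3), and the run in grey. Dashed lines are the medians of all recurrent regions. Mean background is 6.69 tags in the lowest-coordinate region and 1.97 tags in the ninth run region, with rises as well as falls between them. Mean fold is 8.04 in the ninth run region and highest, 8.32, in the sixth. The 2 regions above the run have mean backgrounds of 2.22 and 3.39 tags and mean folds of 5.47 and 5.98.

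Strong peaks were spread unevenly over the lists. A −log10 q of at least 10 was reached by 8 of 12, 5 of 13 and 3 of 16 run peaks in m6A IP 1, 2 and 3, and by 4 of 9, 1 of 10 and 1 of 8 other peaks of the window. Over the whole lists the shares were 22.8%, 22.0% and 15.3%. In the run, 2 regions recurred at that threshold, the first with −log10 q of 17.5, 21.6 and 20.05 and the sixth with 18.4, 17.8 and 14.2. A fold of at least 4 was reached by 12 of 12, 11 of 13 and 13 of 16 run peaks and by 5 of 9, 6 of 10 and 2 of 8 others, against 66.2%, 63.2% and 62.4% of all peaks. The run was chosen from the same contrast, so these counts are given without a reading.

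The median peak length was 306, 321 and 187 bases in the run and 280, 205 and 153 bases in the other recurrent regions of the window. Over peaks of all recurrent regions it was 143, 141 and 110 bases, so run over series was 2.04 ± 0.301 (SD, n = 3). By merged length, 5 of the 9 run regions, the third, the fourth, the sixth, the eighth and the ninth, were longer than 97.9% to 99.8% of the 16757 recurrent regions. The second and seventh were longer than 5.40% and 8.28%, so both very long and very short regions made up the run. Regions were also long in the runs nearest to it in number of regions, on chromosomes 2, 11 and 8, with medians of 433, 301 and 436 bases, against 626 bases in the Plec run and 185 bases over all recurrent regions.

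Plec was compared with the 3 runs nearest to it in number of recurrent regions and then in length. These lay on chromosome 2 from 121125984 to 121132761 (9 regions), on chromosome 11 from 59999054 to 60004149 (9 regions) and on chromosome 8 from 125414008 to 125419974 (8 regions). All 4 runs were ranked on these same measures, so their values are set side by side with no test. Median fold, as the mean over the lists, was 5.84 ± 0.652 at Plec, 5.33 ± 0.305 on chromosome 11, 3.62 ± 0.462 on chromosome 8 and 2.31 ± 0.284 on chromosome 2 (SD, n = 3). Plec and chromosome 11 differed by less than the larger SD in fold and in pileup (28.3 ± 1.15 and 29 ± 2 tags). Their backgrounds, 3.99 ± 0.505 and 4.68 ± 0.330 tags, differed by more than either SD, although the ranges over the lists met. The chromosome 2 run had a pileup of 48 ± 1.73 tags over a background of 20.1 ± 1.78 tags.

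The runs also differed in how much of their length was filled, a measure close to the spacing by which the Plec run was picked. Recurrent regions made up 83.2% of the Plec run and 57.8%, 62.4% and 49.97% of those on chromosomes 2, 11 and 8. Single peaks covered 67.1% ± 9.64 of the Plec run (SD, n = 3) and 51.3% ± 3.27 of that on chromosome 11. The covered share was higher at Plec than in each of the 3 others in every list, down to 56.2% against 19.9%, 48.6% and 31.1% in m6A IP 3. Among all 68 runs of at least 5 recurrent regions, with a median of 55.0%, the Plec run was the most filled, which in part restates that choice. By peaks of single lists it ranked 1st in m6A IP 1 and 2 and 3rd in m6A IP 3. Without m6A IP 2, and with regions of the remaining lists, the run extended down to 76001465, was 59.1% filled and ranked 27th of 108. The bounds also changed in the other settings. With regions of at least 2 lists the run held 16 regions from 76001465 to 76012314, was 65.5% filled and ranked 16th of 193. Without m6A IP 1 it held 12 regions from 76005550 to 76012285, was 74.7% filled and ranked 5th of 95. Without m6A IP 3 it began at 76005977, was 82.3% filled and ranked 2nd of 149.

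**Figure D4:**
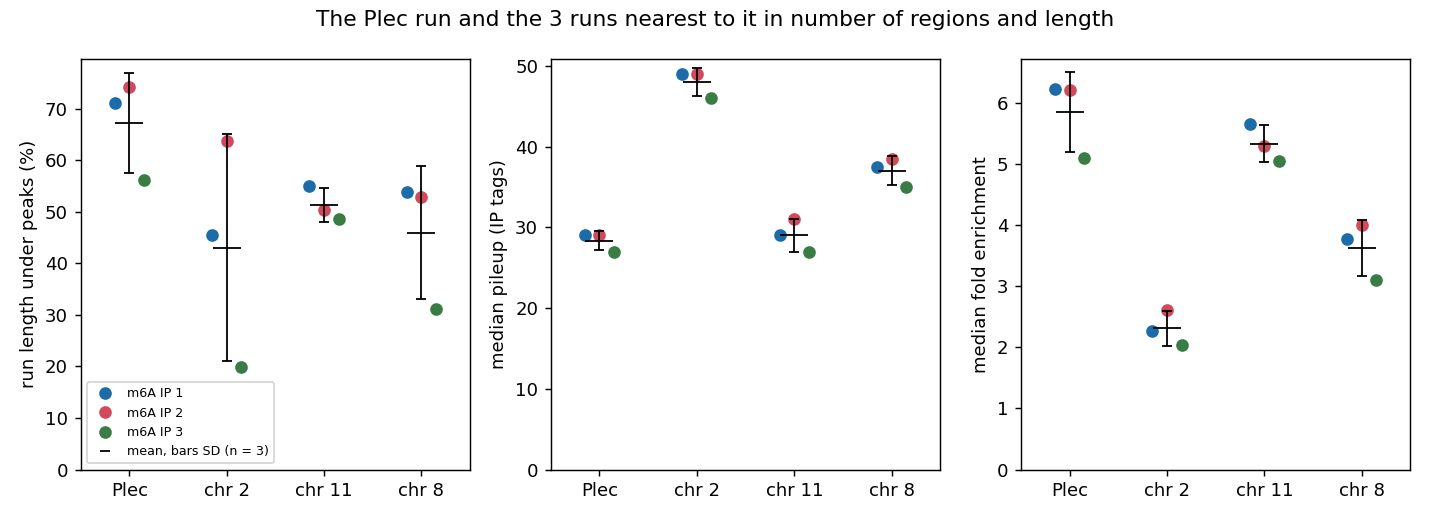
Share of run length under peaks in percent (left), median pileup in IP tags (middle) and median fold enrichment (right) of the Plec run and the 3 runs nearest to it in number of regions and length, with 1 point per list and mean and SD (n = 3). The covered share at Plec is 71.0%, 74.2% and 56.2% in m6A IP 1, 2 and 3, above the other runs in each list, while its pileup and fold overlap those on chromosome 11.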

How the data were processed

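Whole-brain polyadenylated RNA of 3 m6A IP and 3 input libraries was measured by m6A-seq. Total RNA was taken with TRIzol and polyadenylated RNA with a Dynabeads kit, per the labels' protocols. TopHat2 2.1.0, MACS2 2.1.0 and the build mm9 are named in the submitters' processing notes. No alignment option is given in the sources used here. Peaks were called by the authors in each replicate from 1 IP and 1 input with MACS version 2.1.0.20151222 at a q-value cutoff of 0.05, per the file headers. Per the file headers, tags were 50 bases with 1 per position, inputs were scaled down to the IPs, and windows of 1000 and 10000 bases gave the local background.

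The authors deposited the pileup as a coverage signal in IP tags, the fold enrichment as a ratio, and −log10 p-values and −log10 q-values. Other deposited columns hold positions and lengths in bases on mm9.

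From these, peaks sharing 1 base were merged into regions, and regions found in all 3 lists are called recurrent. A region's pileup and fold in a list are each the highest among its peaks. Background was recovered as (pileup + 1) / fold − 1 and taken at the highest peak. Divided by the input scaling it gave input tags, called whole within 0.01 and printed only where whole. Runs joined recurrent regions across gaps of at most 1000 bases. Poisson intervals are of the exact form, at 95%, and are a rough guide to counting error only. They ignore the limit of 1 tag per position and the choice of the deepest base. Merging was tested on simulated data: 3000 of 3000 planted regions and 500 of 500 planted runs were found. Each planted region held a single peak of equal length per list and lay well apart from its neighbours, so full recovery was built in. This checks the code only and not how the closely packed run was divided.

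The locus, the run and the measures were chosen with earlier results of these data known. The rule for naming was that every region of the window is accounted for, with values in each list where it recurred, and that the 3 runs nearest in region number and then length are named. The summit positions within 10 bases, the bases shared between lists, the rank by filled length and the motif search were added after the data were seen. Exon lengths and motifs came from GENCODE M21 on GRCm38, and no coordinate was moved between builds. Alternatives changed the peak threshold, overlap, required lists, list length, gap, window edge and region value, and left out each replicate. Inputs alone were not analysed here. Software was numpy 2.4.6, pandas 2.3.3 and scipy 1.17.1 under Python 3.11.15, with plots by matplotlib 3.10.9.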

Additional observations from a re-analysis of the deposited data

How the results depend on the processing

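The 15 recurrent regions of the Plec window became 2 with a −log10 q of at least 10 and 9 with a fold of at least 4. The 9 regions of the run became 13 when gaps of at most 2000 bases were bridged, and stayed 9 with gaps of at most 500 bases. They became 16 with regions of at least 2 lists joined at gaps of at most 1000 bases, an alternative chosen after seeing the data. With a −log10 q of at least 10 they became 2. At that −log10 q, 100% of the window's recurrent regions lay in the run, against 60%. The median summit distance of 753 bases was 3133 with a −log10 q of at least 10, 871 with a fold of at least 4 and 797 where peaks had to share 50% of each other's length. The fold ratio of run to rest, 1.26, was 1.07 with that overlap. The pileup ratio, 1.06, was 1.79 with a fold of at least 4 and 1.13 with at least 2 lists. It went below 1 with the reciprocal overlap (0.914), with the mean over a region's peaks (0.981) and without m6A IP 1 (0.999). Leaving out each replicate gave 16 to 18 regions in the window, 9 to 11 in the run, 56.2% to 61.1% of them in the run, summit distances of 618 to 755 bases, pileup ratios of 0.999 to 1.18 and fold ratios of 1.16 to 1.46. The cause of these changes was not tested, except that stricter thresholds leave fewer peaks. The pileup and fold ratios could not be computed with a −log10 q of at least 10, where no recurrent region was left outside the run. No paired analysis was possible because each deposited list already combines 1 IP and 1 input, and no test between groups was run. Pileups of 4 to 45 tags limit the precision of every height and fold.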
